A study of Mus musculus with 10 samples.

Results

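The kinesin genes of the mouse hippocampal synapse fraction were described here from gene counts. They were taken as every row of the gene table whose Ensembl identifier, without its version, carried a mouse symbol starting with Kif followed by a digit or by c. The rule found 43 of 22255 genes. Of these, 42 code for motors, and Kif1bp codes for a protein that binds kinesins and is not itself a motor. By known function the motors were listed as 17 of transport, 14 of mitosis, 6 of cilia and centrioles, and 5 others, and Kif1bp was counted with the others. RNA came from synaptoneurosomes, a homogenate fraction enriched in pinched-off and resealed nerve endings with the attached spine, prepared from the hippocampus of C57Bl/6J mice. All mice were labelled WT, and 5 libraries came from mice given vehicle and 5 from mice given AM6545 for a sub-chronic period. AM6545 is an antagonist of the cannabinoid receptor CB1 that enters the brain poorly, and the series asks what it changes in the RNA of the synaptic fraction. Age, sex, dose and batch are not given in the labels used here, nor is it stated whether a library is 1 mouse or a pool, so p-values measure only the spread between these libraries.

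Kinesins are motor proteins that burn ATP to move along microtubules, most of them towards the plus end, which points to the tip of the axon. In neurons the transport kinesins carry synaptic vesicle precursors, mitochondria, receptors and RNA granules from the cell body to synapses. The mitotic kinesins build the spindle, align chromosomes and complete cytokinesis in dividing cells, and their transcription is switched on by the cell cycle, while another set works in cilia and centrioles.

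The promoters of a few kinesins are shown because the transport and mitotic lists also differed in their letters there. RefSeq windows (GRCm38.p6, 250 bases before to 50 bases after the annotated start) were at hand for 33 of the 43 genes. Each window was searched on both strands for the cell cycle gene homology region, CHR (TTTGAA), an element known from promoters of cell cycle genes, and for the CCAAT box (CCAAT), the cyclic AMP response element, CRE (TGACGTCA), a CHR variant (TTCGAA) and an E2F element (GGCGGGAA). Kif11, the motor that slides spindle poles apart, starts in the window chr19:37376132-37376431 on the plus strand. Kif23, which bundles the central spindle for cytokinesis, has chr9:61946750-61947049 on the minus strand. Kif4, a chromosome-bound motor, has chrX:100625815-100626114 on the plus strand, and Kif5c, a neuronal heavy chain of kinesin-1, has chr2:49619036-49619335 on the plus strand. Capitals mark CHR and CCAAT box matches in the mitotic genes, in either orientation, and the CRE in Kif5c.
Kif11: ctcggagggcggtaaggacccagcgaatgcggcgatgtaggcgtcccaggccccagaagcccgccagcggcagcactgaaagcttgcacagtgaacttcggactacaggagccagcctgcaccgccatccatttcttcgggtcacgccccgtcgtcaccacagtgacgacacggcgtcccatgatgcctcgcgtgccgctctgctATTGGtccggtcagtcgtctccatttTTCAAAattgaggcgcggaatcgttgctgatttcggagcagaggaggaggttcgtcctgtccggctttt
Kif23: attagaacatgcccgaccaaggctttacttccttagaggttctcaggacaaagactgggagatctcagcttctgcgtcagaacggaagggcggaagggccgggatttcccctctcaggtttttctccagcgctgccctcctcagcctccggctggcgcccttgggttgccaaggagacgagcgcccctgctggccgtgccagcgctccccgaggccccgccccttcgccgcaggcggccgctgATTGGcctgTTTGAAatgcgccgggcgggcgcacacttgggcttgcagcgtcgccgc
Kif4: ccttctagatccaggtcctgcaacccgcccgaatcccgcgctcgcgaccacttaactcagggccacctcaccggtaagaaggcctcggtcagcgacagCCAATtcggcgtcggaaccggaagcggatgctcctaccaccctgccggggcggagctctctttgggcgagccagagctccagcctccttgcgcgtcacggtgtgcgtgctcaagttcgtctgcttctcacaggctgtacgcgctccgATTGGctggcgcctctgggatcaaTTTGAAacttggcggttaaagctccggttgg
Kif5c: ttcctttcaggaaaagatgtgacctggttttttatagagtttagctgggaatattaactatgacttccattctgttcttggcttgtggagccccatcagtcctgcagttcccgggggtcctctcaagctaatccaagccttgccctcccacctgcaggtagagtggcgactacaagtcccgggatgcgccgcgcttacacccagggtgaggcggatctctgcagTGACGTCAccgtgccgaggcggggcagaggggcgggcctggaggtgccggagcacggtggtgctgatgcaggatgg

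A CHR match was present in 11 of the 13 mitotic genes with a window (84.6%), against 17.9% of all 32851 RefSeq windows. It lay within 40 bases of the start in 9 mitotic genes, while 4.204% of all windows had a match that close. Among transport genes 1 of 11 held it, Kif1a, among cilia genes 1 of 5, Kif27, and among the others 1 of 4, Kif26b. The CCAAT box was in 9 of 13 mitotic genes, 3 of 5 cilia genes, 3 of 11 transport genes, 1 of 4 others and 37.4% of all windows. The CRE was in Kif5c, Kif17 and Kif18a and in 1.79% of all windows. The CHR variant was in the window of Kif24 alone of the kinesin genes (1.56% of all windows), and the E2F element in that of Kif6 alone (2.19%). Kifc1 and Kifc5b share much of their sequence, so their matches are not separate instances. A match is a string of letters and not evidence that a factor binds there.

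**Figure D1:**
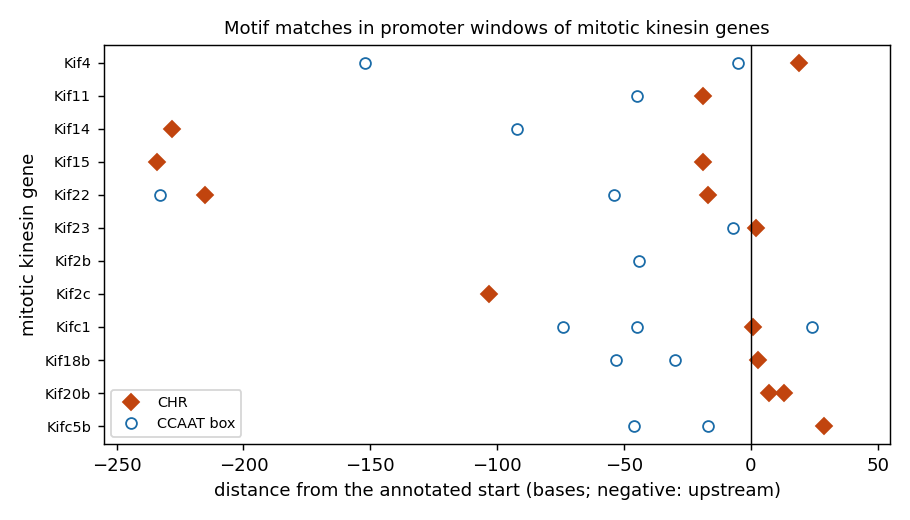
Matches to the CHR (filled diamonds) and the CCAAT box (open circles) in the promoter windows of the mitotic kinesin genes with a match, as distance from the annotated start in bases (negative values lie upstream). In 9 genes a CHR match lies within 40 bases of the start, and of these Kif15 and Kif22 also have a match far upstream.

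Library totals ran from 18106112 to 25899794 counts. The fraction held all 10 neuronal and synaptic markers looked for, at a summed 7849 to 9725 CPM (counts scaled to the TMM-adjusted library total) in vehicle and 7872 to 9193 CPM in AM6545 libraries, and all 6 hippocampal markers. It also held RNA of other cells: all 10 oligodendrocyte markers (12419 to 28494 CPM over the 10 libraries) and all 8 astrocyte and 8 microglia markers. Choroid plexus markers (12 of 12 found) summed to 463 CPM in vehicle replicate 4, 6983 to 10287 CPM in the other vehicle libraries and 2267 to 7930.0 CPM in AM6545 libraries. Vehicle replicate 1 stood apart in the mean annotated length of its counted transcripts, 2644 bases against 2819 to 2951 in the other libraries. In such bulk RNA, fewer cells of a type and less RNA per cell cannot be told apart.

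Transport motors made up nearly all kinesin motor RNA of the synaptic fraction. All 10 libraries were of this fraction, so whether whole hippocampus differs from it cannot be told. Levels of different genes were compared per length, as TPM (counts over transcript length, scaled to the same sum in every library), computed from the deposited transcript counts and annotated transcript lengths. The summed transport level was 1565 to 1936 TPM over the 10 libraries and the summed mitotic level 5.599 to 10.04 TPM. By library the ratio of transport to mitotic level was 282, 196, 211, 166 and 208 in vehicle replicates 1 to 5 and 228, 229, 186, 256 and 166 in AM6545 replicates 1 to 5. The ratio was highest in vehicle replicate 1 and the groups overlapped, with a median of 209 (SD 37.2, n = 10 libraries). Transport motors held 97.4 to 98.2% of the summed motor level, mitotic motors 0.347 to 0.588% and cilia motors 0.664 to 1.11%. Of the mean summed cilia level of 15.6 TPM, 8.62 TPM came from Kif24, and 94.01% of the Kif24 counts were assigned to a non-coding transcript. With lengths taken from the longest transcript of each gene, the median ratio was 277, and without any length it was 400.5.

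On a mean over the 10 libraries, 13 of 17 transport genes lay above every mitotic gene. The exceptions were Kif1c, Kif16b, Kif13b and Kif21b, at 1.97 to 2.799 TPM, which lay below the highest mitotic gene, Kif22, at 2.91 ± 0.959 TPM (mean ± SD, n = 10). Kif22 is a DNA-binding motor that pushes chromosome arms from the spindle poles, and 65.7% of its counts came from the 1 transcript that codes for at least 50% of its longest protein. Per longest transcript Kif22 was at 1.24 and the lowest transport gene, Kif16b, at 2.25 on the TPM scale, so that all 17 transport genes lay above every mitotic gene. With all transcripts counted at their own length, the other mitotic genes had mean levels from 0 to 1.01 TPM. Kif2b, a spindle motor, and Kif12 had no count in any library, which allows at most 0.166 CPM in any one library (a floor of 3 counts, counting error only).

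**Figure D2:**
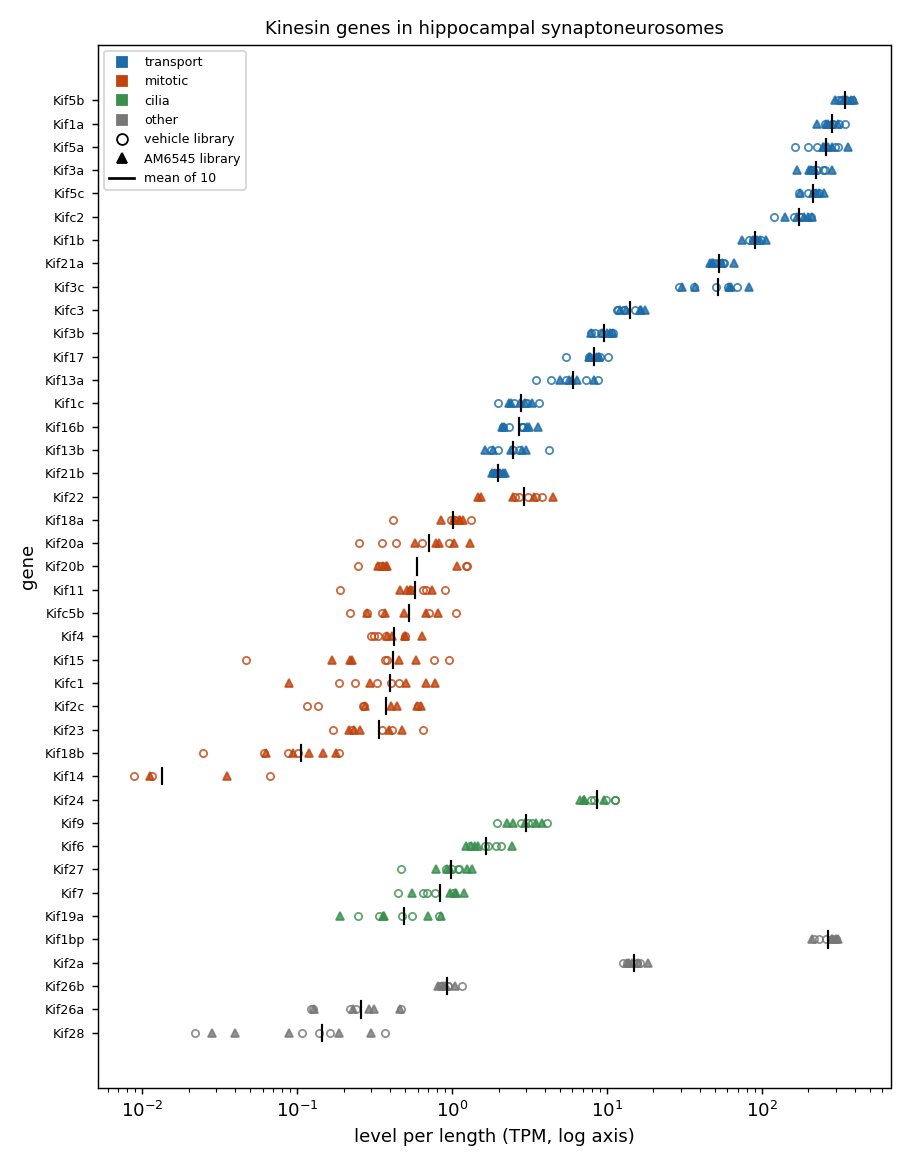
Level per length of the 41 kinesin genes with a count, in TPM on a log axis, one point per library (open circles, vehicle; filled triangles, AM6545) and a bar at the mean of the 10. Values of 0 are not drawn. The 17 transport genes (blue) lie between 1.97 and 346 TPM on average. The means of the 13 mitotic genes drawn (red) do not exceed 2.91 TPM, while their points for separate libraries reach 4.50 TPM.

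Kinesin-1, kinesin-2, kinesin-3 and kinesin-14 each had a member among the most abundant motors. Kif5b, the kinesin-1 heavy chain made in all tissues, was at 346 ± 32.8 TPM, and Kif5a and Kif5c, its neuronal relatives, at 261 ± 56.8 TPM and 214 ± 25.1 TPM (mean ± SD, n = 10). Kif1a, the kinesin-3 that carries synaptic vesicle precursors, was at 284 ± 33.3 TPM. Over libraries the ranges of Kif5b, Kif1a and Kif5a overlapped, while Kif5c (173 to 251.8 TPM) lay below Kif5b (295 to 397 TPM) throughout. The order depended on the length used: per longest transcript Kif5a was at 328, Kif5c at 269, Kif5b at 222, Kifc2 at 218, Kif1a at 194 and Kif3a at 180.3 on the TPM scale. For Kif1a, 43.1% of the TPM came from Kif1a-206, an annotated fragment of 528 bases that held 5.03% of the counts. Kif3a, the shared subunit of heterotrimeric kinesin-2, was at 223 ± 32.6 TPM, between Kif5a and Kif5c. Below Kif5c came Kifc2, a minus-end-directed motor of neurons, at 175 ± 28.9 TPM, and Kif1b, a carrier of mitochondria and vesicle precursors, at 91.1 ± 8.93 TPM. Kif21a and Kif3c followed at 53.3 ± 5.99 TPM and 52.1 ± 18.1 TPM, and all other transport motors were at 14.04 TPM or less.

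By family, kinesin-1 held 40.3 to 49.7% of the motor level in the 10 libraries, kinesin-3 19.6 to 26.3%, kinesin-2 11.6 to 20.6%, the minus-end motors Kifc2 and Kifc3 8.11 to 12.8% and Kif21a with Kif21b 2.62 to 3.69%. These shares take each transcript at its own length, so kinesin-3 includes the short fragment Kif1a-206. Per longest transcript Kif1a was at 194 instead of 284 on the TPM scale. Within kinesin-1 the share of Kif5a was 25.4, 37.2, 28.02, 26.8 and 33.2% in vehicle replicates 1 to 5 and 33.6, 30.3, 29.1, 37.1 and 34.8% in AM6545 replicates 1 to 5. Vehicle replicates 1, 3 and 4 had the lowest Kif5a shares, and the groups overlapped. Kif5b held 38.8 to 47.99% and Kif5c 23.9 to 29.04%. The order depended on the length used. Per longest transcript Kif5a held 33.2 to 45.9%, Kif5c 29.3 to 37.2% and Kif5b 24.4 to 32.1%, with Kif5b lowest in every library. Kinesin-2 pairs Kif3a with either Kif3b or Kif3c, and Kif3c made up 77.6 to 88.7% of the Kif3b and Kif3c level, or 72.3 to 83.2% per longest transcript. Both values use all counts of the genes. Of these, 70.5% in Kif3c and 100% in Kif3b came from transcripts coding for at least 50% of the longest protein. Kif1bp, the kinesin-binding protein, was at 269 ± 36.6 TPM, among the levels of the major motors.

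The share of counts that came from transcripts coding for at least 50% of the longest protein differed between genes. It was at least 90% in 13 of 17 transport genes (median 98.2%) and in 4 of the 13 mitotic genes with a count (median 85.9%). Among transport genes the lowest share was that of Kif3c, 70.5%, whose exons overlap 2617 bases of a gene on the opposite strand. For Kif21b, a neuronal motor that also restrains microtubule growth, 59.6% of the counts went to Kif21b-204, which is annotated as a target of nonsense-mediated decay although it codes for at least 50% of the protein. Kif24, which caps centrioles and holds back cilium formation, had a share of 4.87%. Of its 1151 counts, 94.01% were assigned to Kif24-204, a non-coding processed transcript of 1151 bases. Shares of mitotic genes rest on few counts: all mitotic genes together had 151 to 279 counts per library.

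**Figure D3:**
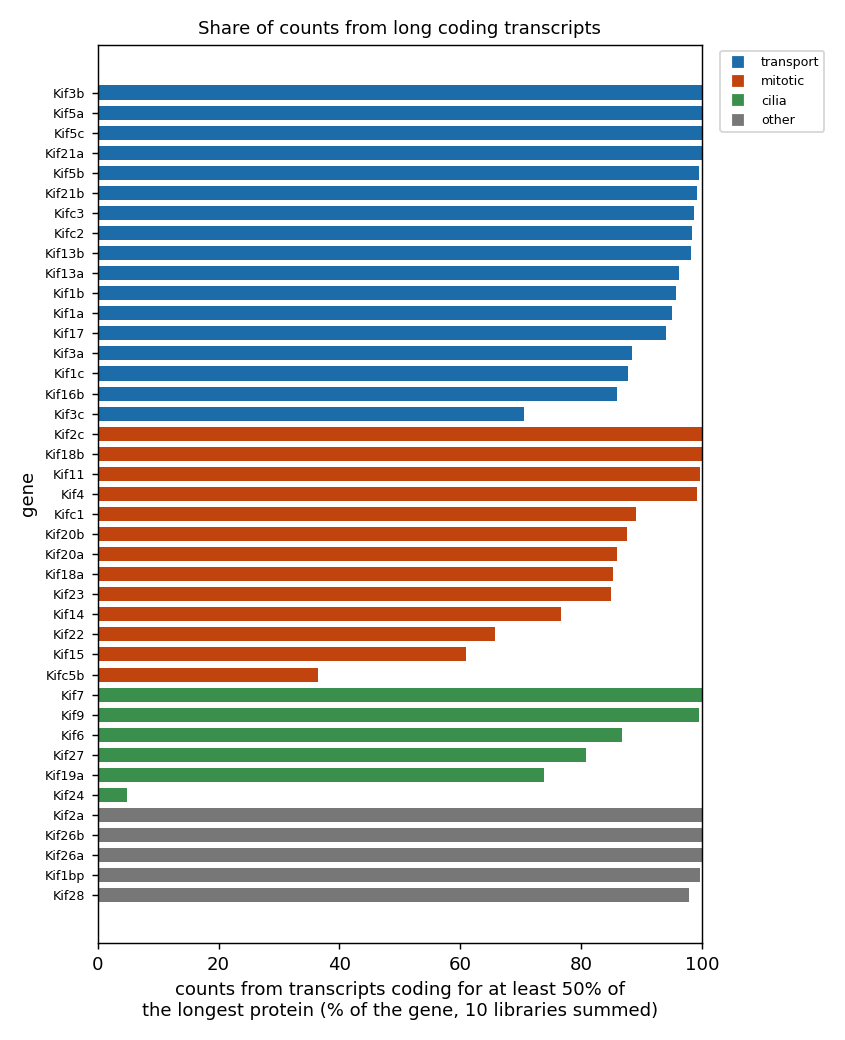
Percent of each kinesin gene's counts, summed over 10 libraries, that came from transcripts coding for at least 50% of the longest annotated protein. Bars start at 0, and colours give the list. Most transport genes reach 90% or more, and Kif24 is lowest at 4.87%.

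No kinesin gene passed the test of AM6545 against vehicle. Of the 43 genes, 35 had enough counts to be tested: 17 of 17 transport, 8 of 14 mitotic, 6 of 6 cilia and 4 of 6 other genes. With edgeR's quasi-likelihood test and Benjamini-Hochberg adjustment over all 14358 genes tested, 0 of 35 passed an adjusted p of 0.05, as did 0.0% of all genes, and the smallest adjusted p among kinesins was 0.9998. At an unadjusted p under 0.05 edgeR called 1 kinesin, Kif24, against 1.88% of all genes (lower in AM6545: 0.738%). DESeq2 called 0 after adjustment and 1 without it, Kif24 (1.92% of all genes). With limma-voom, 0 were called after adjustment and 3 without it, Kif20a, Kif24 and Kifc3 (4.92% of all genes). The groups were without overlap in 0 of 35 kinesin genes and in 0.293% of all genes. A p above the threshold does not show that a gene is equal in both groups.

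The log2 fold change (AM6545 minus vehicle) was above 0 in 22 of 35 kinesin genes, with a median of 0.04, against 48.1% of all genes and a median of -0.0057. It was above 0 in 11 of 17 transport genes (median 0.04), 5 of 8 mitotic genes (median 0.14) and 3 of 6 cilia genes (median 0.0038). All 17 transport genes lay within 0.25 of 0 on the log2 scale. The median standard error was 0.120 for transport genes and 0.285 for the tested mitotic genes, against 0.130 for all genes, so a difference of a given size was measured less exactly in mitotic genes.

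**Figure D4:**
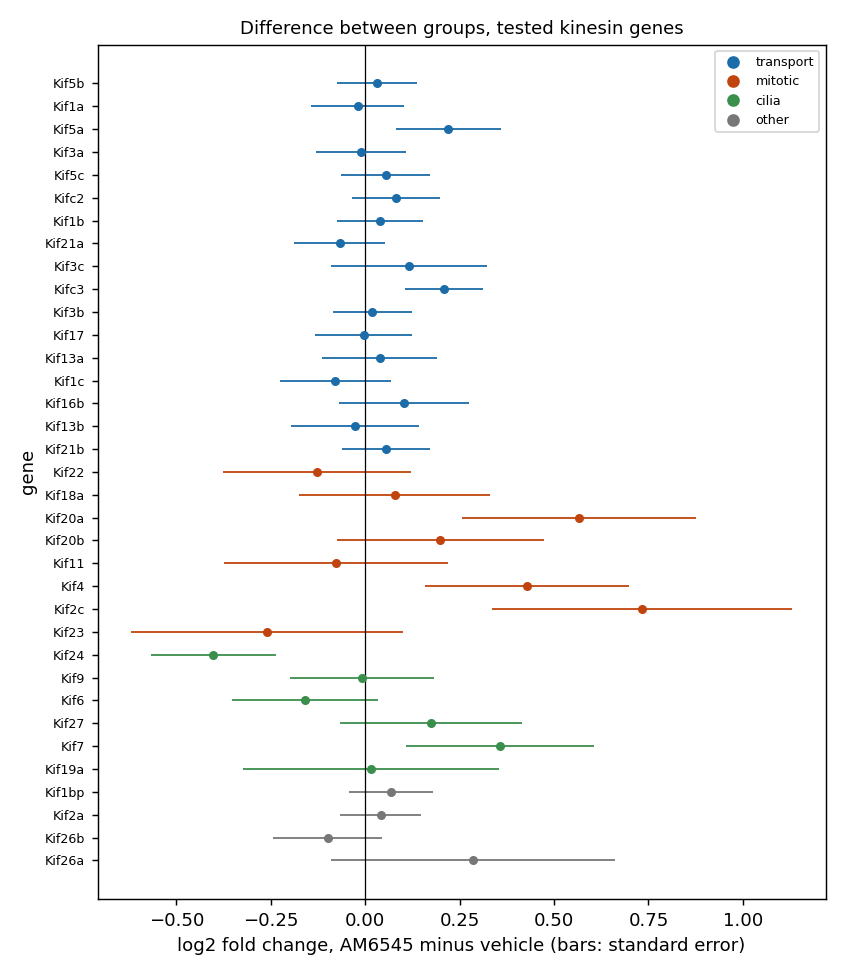
Log2 fold change of the 35 tested kinesin genes, AM6545 minus vehicle, with bars of 1 standard error (edgeR, n = 5 libraries per group), coloured by list. No gene passed an adjusted p of 0.05. The transport genes lie within 0.25 of 0, and the mitotic genes have wider bars.

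Among the kinesin-1 heavy chains, Kif5a was at 611, 913, 761, 663 and 942 CPM in vehicle replicates 1 to 5 and 893, 810.4, 878, 1157 and 791 CPM in AM6545 replicates 1 to 5. AM6545 replicate 4 was the highest of the 10 and vehicle replicate 1 the lowest, while the other AM6545 libraries lay within the vehicle range. The means were 778 ± 147 against 906 ± 147 CPM (mean ± SD, n = 5 each), a log2 difference of 0.22 (SE 0.139; edgeR, unadjusted p = 0.134). The log2 fold change was 0.12 without AM6545 replicate 4, 0.14 without vehicle replicate 1 and 0.055 without vehicle replicates 1 and 4 together, a choice made after seeing the data. Kif5b was at 567, 479.6, 565, 527 and 586 CPM in vehicle and 527, 561, 644, 589 and 461 CPM in AM6545 libraries, again by replicate 1 to 5, with a log2 fold change of 0.030 (SE 0.106). For Kif5c the values were 697, 637, 858, 783 and 742 CPM in vehicle and 771, 765, 903, 816 and 604 CPM in AM6545 libraries, with a log2 fold change of 0.054 (SE 0.118). In both genes AM6545 replicate 3 was highest of all, and the AM6545 range enclosed the vehicle range. AM6545 replicate 5 was the lowest of the 10 libraries for 5 of the 17 transport genes, and vehicle replicate 1 for another 5.

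In kinesin-3, Kif1a was at 698, 547, 775, 664 and 625 CPM in vehicle and 671, 638, 769.8, 683 and 500.2 CPM in AM6545 libraries, with a log2 fold change of -0.020 (SE 0.123). Kif1b was at 440.3, 381, 471, 423 and 416 CPM in vehicle and 433, 476, 488, 465 and 326 CPM in AM6545 libraries, with a log2 fold change of 0.038 (SE 0.114). AM6545 replicate 5 was the lowest library for both, and the groups overlapped. Kif13a, Kif13b and Kif16b, which move endosomes and membrane receptors, and Kif1c, a carrier of vesicles, had means of 5.66 to 16.1 CPM in the groups and log2 fold changes from -0.079 to 0.10.

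Kinesin-2 carries cargo along axons and builds cilia. Kif3a was at 257, 201, 222, 278 and 219.7 CPM in vehicle and 238, 280.2, 186, 239.9 and 224 CPM in AM6545 libraries, and Kif3b, its usual partner, at 27.8, 28.8, 23.9, 27.3 and 30.1 CPM in vehicle and 26.2, 30.7, 23.2, 28.9 and 30.9 CPM in AM6545 libraries. Both groups covered much the same range, with a log2 fold change of -0.012 (SE 0.118) for Kif3a and a log2 fold change of 0.019 (SE 0.105) for Kif3b. Kif3c, the neuronal alternative to Kif3b, was at 123, 147, 86.04, 138 and 94.8 CPM in vehicle and 97.5, 182, 81.9, 139 and 138 CPM in AM6545 libraries. It was the most variable transport motor, with a coefficient of variation of 26.2% over the 10 libraries against a median of 13.0% for the list. AM6545 held both its highest library, replicate 2, and its lowest, replicate 3, and the difference was a log2 fold change of 0.12 (SE 0.207). Kif17, which carries NMDA receptor subunits in dendrites, was at 8.79, 13.7, 11.7, 13.3 and 13.05 CPM in vehicle and 12.5, 11.4, 10.7, 13.2 and 12.6 CPM in AM6545 libraries, with a log2 fold change of -0.0038 (SE 0.129). The AM6545 libraries all lay within the vehicle range, whose lowest value came from replicate 1.

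Of the remaining transport motors, Kif21a was at 201, 152, 159, 185 and 161 CPM in vehicle and 146, 211, 148, 169 and 145 CPM in AM6545 libraries, with a log2 fold change of -0.068 (SE 0.1203). Kif21b was at 10.5, 8.004, 8.92, 8.602 and 8.71 CPM in vehicle and 8.71, 9.82, 8.54, 10.2 and 9.15 CPM in AM6545 libraries, with a log2 fold change of 0.054 (SE 0.116) and the smallest coefficient of variation of the list, 8.76%. Kifc2 was at 225, 311, 304, 273 and 284 CPM in vehicle and 336, 234, 312, 322 and 272 CPM in AM6545 libraries, with a log2 fold change of 0.081 (SE 0.118). In Kif21a 3 AM6545 libraries lay below every vehicle library and 1 above, in Kif21b the AM6545 values all lay within the vehicle range, and in Kifc2 3 AM6545 libraries lay above every vehicle library.

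Kifc3, a minus-end motor of cell junctions and the Golgi, had the smallest p among kinesins with a positive difference. It was at 18.5, 22.5, 20.3, 20.4 and 21.1 CPM in vehicle replicates 1 to 5 and 25.8, 20.01, 22.3, 25.01 and 25.6 CPM in AM6545 replicates 1 to 5. AM6545 replicates 1, 4 and 5 lay above every vehicle library, and replicates 2 and 3 within their range. The means were 20.6 ± 1.45 against 23.7 ± 2.501 CPM (mean ± SD, n = 5 each), a log2 difference of 0.21 (SE 0.103; edgeR, unadjusted p = 0.0583). With edgeR its unadjusted p was under 0.05 without vehicle replicate 2 or AM6545 replicate 2, and ran from 0.0174 to 0.149 over the sets that leave out 1 library. With all libraries it was under 0.05 with limma-voom only among the 3 tools.

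Kif2a, a microtubule depolymerase that limits neurite branches and also works in the spindle, was at 37.04, 33.96, 31.1, 37.3 and 38.4 CPM in vehicle and 34.01, 45.4, 33.7, 33.3 and 36.5 CPM in AM6545 libraries, with a log2 fold change of 0.040 (SE 0.107). AM6545 replicate 2 was the highest library, and the others overlapped. Its exons overlap 1229 bases of Dimt1 on the opposite strand, and the use of strand in counting is not given in the sources used here. Kif26a and Kif26b, atypical kinesins that act in signalling, had log2 fold changes of 0.29 and -0.099, and Kif1bp one of 0.069. Kif28 had 1 to 13 counts per library and was not tested.

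Of the mitotic motors, the 8 tested had 4 to 55 counts per library. Kif11 was at 0.534, 2.04, 1.66, 1.39 and 1.62 CPM in vehicle and 1.28, 1.86, 1.16, 1.33 and 1.24 CPM in AM6545 libraries, with a log2 fold change of -0.078 (SE 0.296). Vehicle replicate 1 was far below the other vehicle libraries, and the remaining values overlapped. Kif18a, which dampens chromosome movements on the spindle, had the same library as its lowest: 0.777, 2.18, 2.02, 1.93 and 1.83 CPM in vehicle and 2.06, 1.96, 1.93, 1.498 and 1.78 CPM in AM6545 libraries, with a log2 fold change of 0.078 (SE 0.252). Vehicle replicate 1 was the lowest vehicle library for 7 of the 8 tested mitotic genes, all but Kif22, and was also the library with the shortest counted transcripts. Its summed level of 24 proliferation markers, of which 23 were detected and Bub1 was at 0 throughout, was 132 CPM, the highest of the vehicle libraries (the others were at 111 to 129.5 CPM), and AM6545 libraries were at 109 to 134 CPM. Without this library the median log2 fold change of the tested mitotic genes was 0.06 instead of 0.14, and the part of transcript length in their values was not tested.

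Kif2c, which takes apart microtubules at centromeres, had the second smallest p among kinesins with a positive difference. It was at 0.194, 0.805, 0.207, 0.4096 and 0.383 CPM in vehicle replicates 1 to 5 and 0.389, 0.879, 0.661, 0.583 and 0.8901 CPM in AM6545 replicates 1 to 5. AM6545 replicates 2 and 5 lay above every vehicle library by a small margin over vehicle replicate 2, and no AM6545 library lay below all vehicle libraries. The means were 0.3998 ± 0.247 against 0.6803 ± 0.211 CPM (mean ± SD, n = 5 each), a log2 difference of 0.73 (SE 0.398; edgeR, unadjusted p = 0.0837), on 4 to 18 counts per library. Without vehicle replicate 2, its highest vehicle library, the log2 fold change was 1.13 (edgeR, unadjusted p = 0.0119). In that set 578 of all 14460 genes had an unadjusted p under 0.05. Without AM6545 replicate 1 the unadjusted p was also under 0.05, as in 222 of all 14453 genes. Over the sets that leave out 1 library the log2 fold change ran from 0.57 to 1.13 and the unadjusted p from 0.0119 to 0.178. Kif20a, a motor of cytokinesis, followed with 0.534, 0.568, 0.8298, 1.56 and 0.85 CPM in vehicle replicates 1 to 5 and 1.01, 1.09, 1.102, 1.71 and 1.58 CPM in AM6545 replicates 1 to 5. Vehicle replicate 4 was above 3 AM6545 libraries, and the means were 0.868 ± 0.411 against 1.297 ± 0.322 CPM (mean ± SD, n = 5 each), a log2 difference of 0.57 (SE 0.3102; edgeR, unadjusted p = 0.0863). Without vehicle replicate 4, its highest vehicle library, the log2 fold change was 0.89 (edgeR, unadjusted p = 0.00812). In that set 414 of all 14445 genes had an unadjusted p under 0.05. Over the sets that leave out 1 library the log2 fold change of Kif20a ran from 0.44 to 0.89 and its unadjusted p from 0.00812 to 0.207. The exons of Kif20a overlap 1271 bases of Cdc23 on the opposite strand.

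Kif4 was at 0.583, 0.7104, 0.882, 0.983 and 1.23 CPM in vehicle and 1.59, 1.29, 1.102, 0.999 and 0.939 CPM in AM6545 libraries, with a log2 difference of 0.43 (SE 0.271; edgeR, unadjusted p = 0.133), and 2 AM6545 libraries lay above every vehicle library. Its exons overlap 832 bases of Pdzd11 on the opposite strand. Kif20b, which works in cytokinesis and in the polarity of young neurons, was at 0.583, 0.8999, 0.985, 0.983 and 0.638 CPM in vehicle and 1.05, 1.03, 1.102, 0.916 and 0.593 CPM in AM6545 libraries, with a log2 fold change of 0.20 (SE 0.275). The 2 mitotic genes with the most negative differences were Kif23 and Kif22. Kif23 was at 0.3398, 0.995, 0.519, 0.4096 and 0.638 CPM in vehicle and 0.583, 0.414, 0.386, 0.333 and 0.692 CPM in AM6545 libraries, with a log2 difference of -0.26 (SE 0.361; edgeR, unadjusted p = 0.480), and its highest library was vehicle replicate 2. Kif22 was at 2.67, 1.66, 1.35, 2.21 and 1.66 CPM in vehicle and 1.17, 1.76, 2.48, 1.58 and 1.83 CPM in AM6545 libraries, with a log2 fold change of -0.13 (SE 0.249), and its highest library was vehicle replicate 1.

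Too few counts were present to test 6 mitotic genes. Kif15, a spindle motor that can replace Kif11, was at 0.0485, 0.284, 0.467, 0.451 and 0.255 CPM in vehicle and 0.194, 0.724, 0.496, 0.291 and 0.198 CPM in AM6545 libraries, from 1 to 14 counts. Kifc1, which focuses spindle poles, was at 0.437, 0.426, 0.5705, 0.164 and 0.213 CPM in vehicle and 0.583, 0.103, 0.1102, 0.333 and 0.593 CPM in AM6545 libraries, and its copy Kifc5b had 3 to 15 counts per library. The groups overlapped in each of these genes. Of the sequence words of 31 bases in Kifc1, 57.2% were shared with other genes, and of those in Kifc5b 51.6%, so the division of reads between them is uncertain. Kif18b had 40 counts and Kif14 had 12 counts over all 10 libraries, and Kif2b had none.

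Among cilia motors, Kif24 had an unadjusted p under 0.05 and did not pass after adjustment. It was at 7.91, 6.39, 6.33, 5.12 and 4.85 CPM in vehicle replicates 1 to 5 and 4.31, 5.89, 4.46, 4.41 and 4.05 CPM in AM6545 replicates 1 to 5. AM6545 replicates 1, 3, 4 and 5 lay below every vehicle library, and replicate 2 lay within the vehicle range. The means were 6.12 ± 1.22 against 4.63 ± 0.725 CPM (mean ± SD, n = 5 each), a log2 difference of -0.40 (SE 0.165; edgeR, unadjusted p = 0.0260), with an adjusted p of 0.9998. Its unadjusted p rose above 0.05 without vehicle replicate 1 or without AM6545 replicate 1, 4 or 5, with log2 fold changes between -0.50 and -0.29 over the 10 sets that leave out 1 library. The non-coding Kif24-204, which held most of the counts, differed by -0.39 (SE 0.179; edgeR over transcripts, unadjusted p = 0.0525). Coding transcripts of Kif24 had 5, 11, 5, 3 and 9 counts in vehicle and 6, 3, 3, 7 and 4 counts in AM6545 libraries, which was too few to compare.

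Kif9 and Kif6, motors of motile cilia and flagella, and Kif27, which is needed for the central pair of motile cilia, are known from ciliated cells such as those of the ependyma. Kif9 was at 4.66, 5.399, 4.41, 2.91 and 4.17 CPM in vehicle and 4.86, 3.36, 4.298, 3.41 and 5.44 CPM in AM6545 libraries, with a log2 fold change of -0.0086 (SE 0.1902). Kif27 was at 2.28, 2.42, 2.44, 1.19 and 2.295 CPM in vehicle and 1.98, 1.71, 2.92, 2.21 and 3.16 CPM in AM6545 libraries, with a log2 fold change of 0.17 (SE 0.24). Vehicle replicate 4 was the lowest of the 10 libraries for both genes and was also the lowest for ependymal cilia markers, of which 18 of 20 were found and none was at 0 in all libraries. Their sum was 41.4 CPM there, 71.9 to 107 CPM in the other vehicle libraries and 51.02 to 108 CPM in AM6545 libraries, and their part in the Kif9 and Kif27 values was not tested. Kif6 was at 2.91, 2.79, 2.07, 2.58 and 2.21 CPM in vehicle and 2.33, 1.76, 2.204, 2.08 and 2.87 CPM in AM6545 libraries, with a log2 difference of -0.16 (SE 0.193; edgeR, unadjusted p = 0.418), the second smallest p among kinesins with a negative difference. Its lowest library was AM6545 replicate 2 and the groups overlapped.

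Kif7, which relays Hedgehog signals at the tip of the primary cilium, was at 1.84, 1.37, 1.09, 2.42 and 1.74 CPM in vehicle and 2.37, 1.29, 2.31, 2.33 and 2.57 CPM in AM6545 libraries, with a log2 difference of 0.36 (SE 0.249; edgeR, unadjusted p = 0.171). All AM6545 libraries but replicate 2 were between 2.31 and 2.57 CPM, and vehicle replicate 4 lay among them. Kif7 exons overlap 877 bases of an antisense gene. Kif19a, which trims microtubules at cilia tips, was at 0.6796, 0.758, 0.674, 0.614 and 0.425 CPM in vehicle and 0.622, 0.775, 1.05, 0.333 and 0.445 CPM in AM6545 libraries from 8 to 19 counts, with a log2 fold change of 0.016 (SE 0.339), and AM6545 held both its highest and its lowest library.

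**Figure D5:**
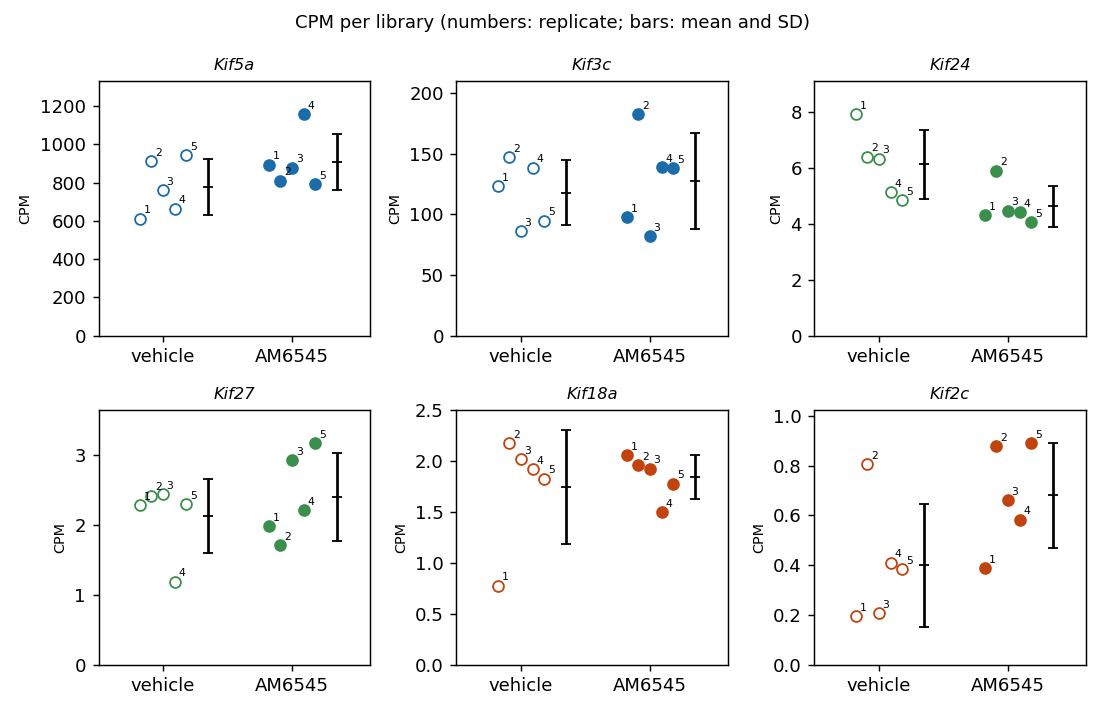
CPM of 6 kinesin genes in each library (numbers give the replicate), vehicle on the left and AM6545 on the right, with the mean and SD of each group as a bar. Kif24 shows 4 AM6545 libraries below all vehicle libraries, and Kif18a and Kif27 each show 1 low vehicle library, replicate 1 and replicate 4.

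Transcripts of kinesin genes gave no call either. The transcript table held 269 kinesin transcripts, of which 185 had a count and 69 were tested. With edgeR, 0 of 69 passed an adjusted p of 0.05 (0.00314% of all 31848 transcripts did) and 0 an unadjusted p of 0.05 (1.97% of all), while DESeq2 called 0 after adjustment and 1 without it, Kif24-204. The main transcript of Kif1a, Kif1a-204, held 69.96% of the counts of its gene, that of Kif1b, Kif1b-203, 93.9%, that of Kif5a, Kif5a-201, 99.99% and that of Kif2a, Kif2a-201, 75.03%. Their log2 fold changes were 0.086, 0.070, 0.22 and 0.13. Below Kif24-204, the next smallest p among lower transcripts was that of the fragment Kif1a-206, at -0.36 (edgeR, unadjusted p = 0.0792), which was highest in vehicle replicate 1. Among higher transcripts it was that of Kif5b-207, a retained intron with 4 to 22 counts, at 0.71 (edgeR, unadjusted p = 0.107), and then Kif2c-201, at 0.74 (edgeR, unadjusted p = 0.134).

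Kif1b makes a long and a short motor from alternative ends, the long one with a lipid-binding tail. The share of Kif1b TPM from transcripts coding for at least 1500 residues was 61.9, 80.3, 91.2, 83.4 and 95.98% in vehicle replicates 1 to 5 and 93.5, 93.3, 90.6, 76.9 and 79.5% in AM6545 replicates 1 to 5. The groups overlapped, and vehicle replicate 1 was far below the rest. The difference was 4.19 percentage points (two-sided exact permutation test over all arrangements of the libraries, p = 0.627; the smallest possible p was 0.00794). It was -0.985 points without vehicle replicate 1. The low shares went with Kif1b-209, a retained intron, which held 1262 counts in vehicle replicate 1 and 0 in vehicle replicate 5. Among coding transcripts alone, long forms made up 96.4 to 97.97% of the Kif1b level in every library.

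The partners of kinesins were described from lists of light chains and cargo adaptors and of dynein and dynactin, the motor of the opposite direction. Of 31 tested light chains and adaptors, 0 passed the adjusted threshold with edgeR, 20 had a log2 fold change above 0 and the median was 0.07. Ppfia3, a liprin scaffold that binds Kif1a, was the only one with an unadjusted p under 0.05, against 1.14% of all genes in that direction. It was at 28.5, 39.6, 34.3, 38.3 and 34.9 CPM in vehicle replicates 1 to 5 and 42.1, 45.4, 38.9, 44.2 and 37.4 CPM in AM6545 replicates 1 to 5. AM6545 replicates 1, 2 and 4 lay above every vehicle library, with a log2 difference of 0.24 (SE 0.104; edgeR, unadjusted p = 0.0322). Next came Mapk8ip2, a scaffold that links kinesin-1 to cargo, at 0.15. In the other direction were Klc3, a kinesin light chain, at -0.36 and Lin7b, a scaffold of the Kif17 cargo complex, at -0.20 (SE 0.151). Lin7b was at 75.7 CPM in vehicle replicate 1. It was at 39.9 to 48.0 CPM in the other vehicle libraries and 37.5 to 51.1 CPM in AM6545 libraries.

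Of 27 dynein and dynactin genes, all tested, 0 passed the adjusted threshold with edgeR, 14 had a log2 fold change above 0 and the median was 0.03. Dctn1, the dynactin arm that holds microtubules, was the only one with an unadjusted p under 0.05, against 1.14% of all genes in that direction. It was at 135, 195, 155, 188 and 192 CPM in vehicle replicates 1 to 5 and 220.3, 224, 171, 216 and 208 CPM in AM6545 replicates 1 to 5. AM6545 replicates 1, 2, 4 and 5 lay above every vehicle library, with a log2 difference of 0.27 (SE 0.117; edgeR, unadjusted p = 0.0367). Actr1a, the actin-like rod of dynactin, was at 0.27, and Dynlt3 and Ndel1, a dynein light chain and a dynein regulator, were at -0.13 and -0.091. In Ppfia3, Mapk8ip2, Dctn1 and Actr1a vehicle replicate 1 was the lowest of all libraries, and in Klc3 and Lin7b it was the highest.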

How the data were processed

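Per the labels' protocols, libraries of total RNA from hippocampal synaptoneurosomes came from the SMARTer Ultra Low Input kit. The deposited files hold the authors' estimated counts per gene and per transcript for 10 libraries, made with Salmon 1.5.2 and mm10, per the submitters' processing notes. The annotation release and the use of strand are not given in the sources used here. Columns were tied to libraries by title. Counts were rounded and fitted over all 14358 genes passing filterByExpr (minimum count 10, minimum total 15) with edgeR 4.0.16 (TMM, robust quasi-likelihood, group alone, Benjamini-Hochberg, threshold 0.05) in R 4.3.3, and transcripts likewise. CPM are scaled by TMM. TPM were computed from transcript counts and GENCODE M21 lengths (101527 of 102392 transcripts had one), so they carry the errors of assigning reads to transcripts. Of 43 kinesin genes, 42 equalled the sum of their transcripts within 0.5 counts. Promoters and symbols came from RefSeq and GENCODE M21 tables, with symbols for 22155 genes. DESeq2 1.42.0, limma 3.58.1 with voom and other alternatives were run. In simulated counts over the 14358 genes of this comparison, 26 of 50 genes were called at 1.5-fold, 44 of 50 at 2-fold, 44 of 50 at 3-fold and 50 of 50 at 4-fold, with 9 of 14158 unchanged genes called. The changed genes were drawn at random over all levels and changed together, which eases the adjusted threshold. These shares are therefore not the chance of calling a lone change in a kinesin gene, least of all a mitotic one with few counts. Genes named with values in every library were the main neuronal, mitotic and cilia motors and the 3 smallest unadjusted p in each direction. For transcripts and for each partner list, the 2 smallest in each direction were named. Kif18a, Kif1bp, Kif21b-204 and Kif1b-209 were named after their values were seen. The members and lists were chosen with earlier results of these data known.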

Additional observations from a re-analysis of the deposited data

Results flagged for a closer look

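In 8 of 122 groups of 5 libraries, 1 library lay far from the other 4 relative to the spread of the group (Dixon's 95% limit), where chance alone gives about 6.1. In vehicle replicate 1, Kif18a was low at 0.777 CPM. In vehicle replicate 4, Kif27 was low at 1.19 CPM and Kif1bp high at 392 CPM. AM6545 replicate 2 held 4 of the 8: Kif24 was high at 5.89 CPM, Kif11 high at 1.86 CPM, Kif2a high at 45.4 CPM and Kif7 low at 1.29 CPM. In AM6545 replicate 4, Kif5a was high at 1157 CPM.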

How the results depend on the processing

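The count of kinesin genes called was 0 under all 19 alternatives on genes and 0 under all 13 on transcripts. Of the 27 named kinesin genes with a fit, 11 kept the sign of their log2 fold change under all 19 alternatives and 16 reversed under at least 1, none of them past the adjusted threshold. Over the sets that leave out 1 library the log2 fold change ran from -0.086 to 0.062 for Kif1a, -0.0033 to 0.13 for Kif1b, -0.085 to 0.060 for Kif3a, -0.027 to 0.079 for Kif3b, -0.046 to 0.24 for Kif3c, -0.027 to 0.091 for Kif5b, -0.0083 to 0.13 for Kif5c, -0.099 to 0.045 for Kif17, -0.048 to 0.073 for Kif2a, -0.28 to 0.075 for Kif11, -0.28 to 0.020 for Kif22, -0.42 to 0.016 for Kif23, -0.12 to 0.087 for Kif9 and -0.21 to 0.19 for Kif19a. With limma-voom Kif3a was at 0.046, Kif5b at -0.0050, Kif2a at -0.011 and Kif19a at -0.15. Without vehicle replicates 1 and 4 together, a choice made after seeing the data, Kif1a was at 0.0082, Kif3a at 0.12, Kif21a at 0.058, Kifc2 at -0.019 and Kif22 at 0.17. The cause of these reversals was not tested.

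Deviations of libraries with the same replicate number correlated at -0.14, -0.19, 0.23, 0.39 and 0.06 for numbers 1 to 5. The numbers were not taken as pairs in the main fit, and these values cannot decide whether they are. With the replicate number as a block, 0 kinesin genes were called, 3 had an unadjusted p under 0.05 (Kif20a, Kif24 and Kif2c; 277 of all 14358 genes did), Kif17 was at 0.0088 and Kif19a at -0.031, and 0 transcripts of any gene were called. Each vehicle library correlated best with its own number for numbers 3, 4 and 5 only.

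Of all genes, 1 was called with limma-voom and 0 to 1 when 1 library was left out. Of all transcripts, 11 were called with DESeq2, 0 with at least 10 counts in every library and 0 to 4 when 1 library was left out, against 1 as reported. The median ratio of transport to mitotic level was 400.5 without length, 381 without Kif20b, Kif22 and Kif23, 110.0 without Kif5a, Kif5b and Kif5c, and 277 per longest transcript, which was chosen after seeing the data. The transport share was then 98.3% without length, 95.8% without Kif5a, Kif5b and Kif5c, and 98.0% per longest transcript. The difference in the Kif1b long form share ran from -0.985 to 7.54 percentage points when 1 library was left out. Mitotic values rest on 151 to 279 counts per library in all, and reads were amplified and carry no molecular identifiers, so floors cover counting error only.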
